A study of Ovis aries with 10 samples.

Results

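The circular RNAs (circRNAs) described here come from sheep genes that encode chromatin regulators, the proteins that write, erase or read chemical marks on histones, move nucleosomes, or oxidise methylated DNA. They were chosen by the symbol of the host gene, the gene whose exons or introns are circularised: symbols of the KMT, KDM, SETD, NSD, EHMT, CHD, SMARC, ARID, BAZ, BRD, ASXL, PHF, HDAC, KAT, TET, ATAD2, ZMYND and INO80 families and of ASH1L, EP300, EP400 and CREBBP. The rule uses names only and no measured value, but it was set with earlier results of these data known. It found 207 circRNAs from 67 host genes, among 8721 circRNAs from 3435 named hosts in the 10 libraries. No TET2, TET3 or CREBBP circRNA was listed. The symbols do not fix a protein's substrate: SETD3, for example, is known in mammals as an actin methyltransferase although it carries the SET domain of histone methyltransferases.

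A circRNA forms when a splice donor joins an acceptor upstream of it, and reads across that back-splice junction count the circle. Many chromatin regulators are encoded by long genes with many exons, from which circles commonly arise. In skeletal muscle, deacetylases of the HDAC4 kind hold back the MEF2 transcription factors, and the acetyltransferase KAT2B acts with MYOD1. Several chromatin regulators also serve as coregulators of steroid hormone receptors, among them EP300, KMT2C and KDM1A.

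The study compared ovariectomized small-tailed Han sheep (OR-STH, 5 libraries) with small-tailed Han sheep that had sham surgery (STH, 5 libraries), to examine how estrogen bears on muscle in females. Total RNA is labelled as coming from the longissimus dorsi, the long back muscle. The same labels give primary myoblasts as the cell type and describe a culture with graded estradiol, yet no library carries an estradiol dose, so whether tissue or cultured cells were sequenced is not settled by the labels. They give no age, and do not say that each library is a different animal, so the p-values below measure the spread between libraries, part of which may be technical.

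OR-STH libraries held 39045 to 67061 junction reads and STH libraries 35731 to 49887. OR-STH 5 was the deepest. Values below are junction reads, or normalized reads, which are junction reads scaled for library depth; both count 1 junction and so do not depend on the length of the circle. Of 18 adult muscle fiber markers 13 hosted circRNAs, with summed normalized reads of 1124 to 1922 in OR-STH and 1618 to 2389 in STH libraries, with titin (TTN) as the most abundant. Of 12 myoblast and proliferation markers none hosted a circRNA, and the same held for the 5 fibroblast, 4 immune and 4 adipocyte markers. Endothelial markers hosted circRNAs in 4 of 6 cases, with sums of 12.2 to 27.4 normalized reads in OR-STH and 16.1 to 31.1 in STH. Of the 5 smooth muscle and pericyte markers, MYH11 and ABCC9 did so, with sums of 42.8 to 73.5 in OR-STH and 36.6 to 72.4 in STH. ABCC9 held 558 of their 562 junction reads, so this sum follows 1 gene and is a weak measure of those cells. The part of these differences between libraries in the results below was not tested. In bulk RNA, fewer cells of a type and less RNA per cell cannot be told apart, and junction reads do not measure the linear mRNA of the host.

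Most chromatin regulator circRNAs were rare and a few carried most of the reads. Of the 207, 85 were listed in 1 library (41.1%, against 37.5% of all circRNAs of the series), and 25 were listed in all 10. Those 25 held 5898 of the 8504 junction reads of the group. The files list a circRNA in a library from 2 reads on, so a circRNA that is not listed may still have been present at that depth. The 10 most abundant held 49.3% of the reads. The KDM5C circle alone took 14.1%.

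**Figure D1:**
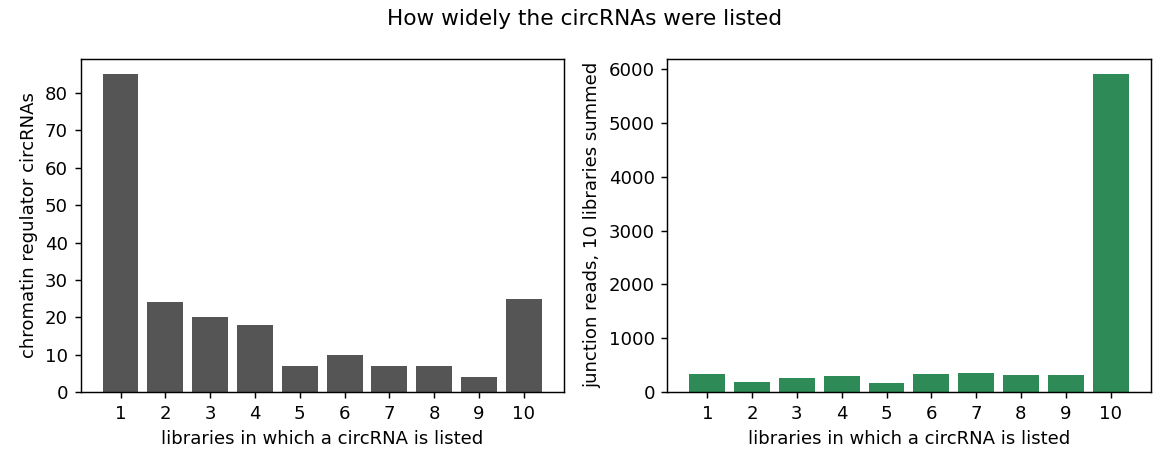
How widely the 207 chromatin regulator circRNAs were listed. The left bars count circRNAs, and the right bars give their junction reads summed over 10 libraries, both by the number of libraries that list them. The tallest bar on the left is the 85 circRNAs of 1 library, and on the right the 25 circRNAs of all 10 libraries with 5898 reads.

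In form they stood close to the series. The authors class 193 as exonic and 14 as intronic, and the median distance between the junction ends was 6406 bases (7689 in the series). The sequence listed inside the junction had a median of 286 bases, against 291 in the series. In 57 circRNAs that sequence is a single block, but in 50 of these the block is shorter than the distance between the ends, so that only 7 are circles of 1 stretch from end to end. All circRNAs of each of the 67 hosts lay on 1 strand. Hosts gave 3.09 circRNAs each on average (2.47 in the series), and 54.1% of the circRNAs shared a start or an end with another of the same host, a share also found for the series as a whole (54.1%).

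Several hosts repeated 1 junction end or exon block in many of their circles. Start and end here mean the lower and the higher base on the chromosome. EHMT1, ZMYND11, ATAD2B and SETD3 lie on the minus strand, where the end is the acceptor side of a circle and the start the donor side. In EHMT1, which encodes a histone H3 methyltransferase, 6 of 8 circRNAs ended at base 318417 of chromosome 3 and held 386 of the 390 EHMT1 reads. All 4 circRNAs of ZMYND11, a reader of methylated histone H3, ended at base 46495419 of chromosome 13, and all contained the exons from 46476376 to 46476535 and from 46495285 to 46495419. In ATAD2B, which encodes a bromodomain protein with an ATPase domain, 4 of 8 ended at base 31636437 of chromosome 3. In SETD3, 4 of 6 began at base 62129767 of chromosome 18 with 371 of 385 reads. KMT2E, a relative of the histone methyltransferases of the KMT2 family, repeated the block from 47727641 to 47727825 on chromosome 4 in 5 of 7 circRNAs. BAZ2B, a bromodomain subunit of nucleosome remodelers, used the start 150336398 on chromosome 2 for 3 of 5, while its most abundant circle lay elsewhere in the gene. Circles of 1 host that share an end are not independent measurements of that host.

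**Figure D2:**
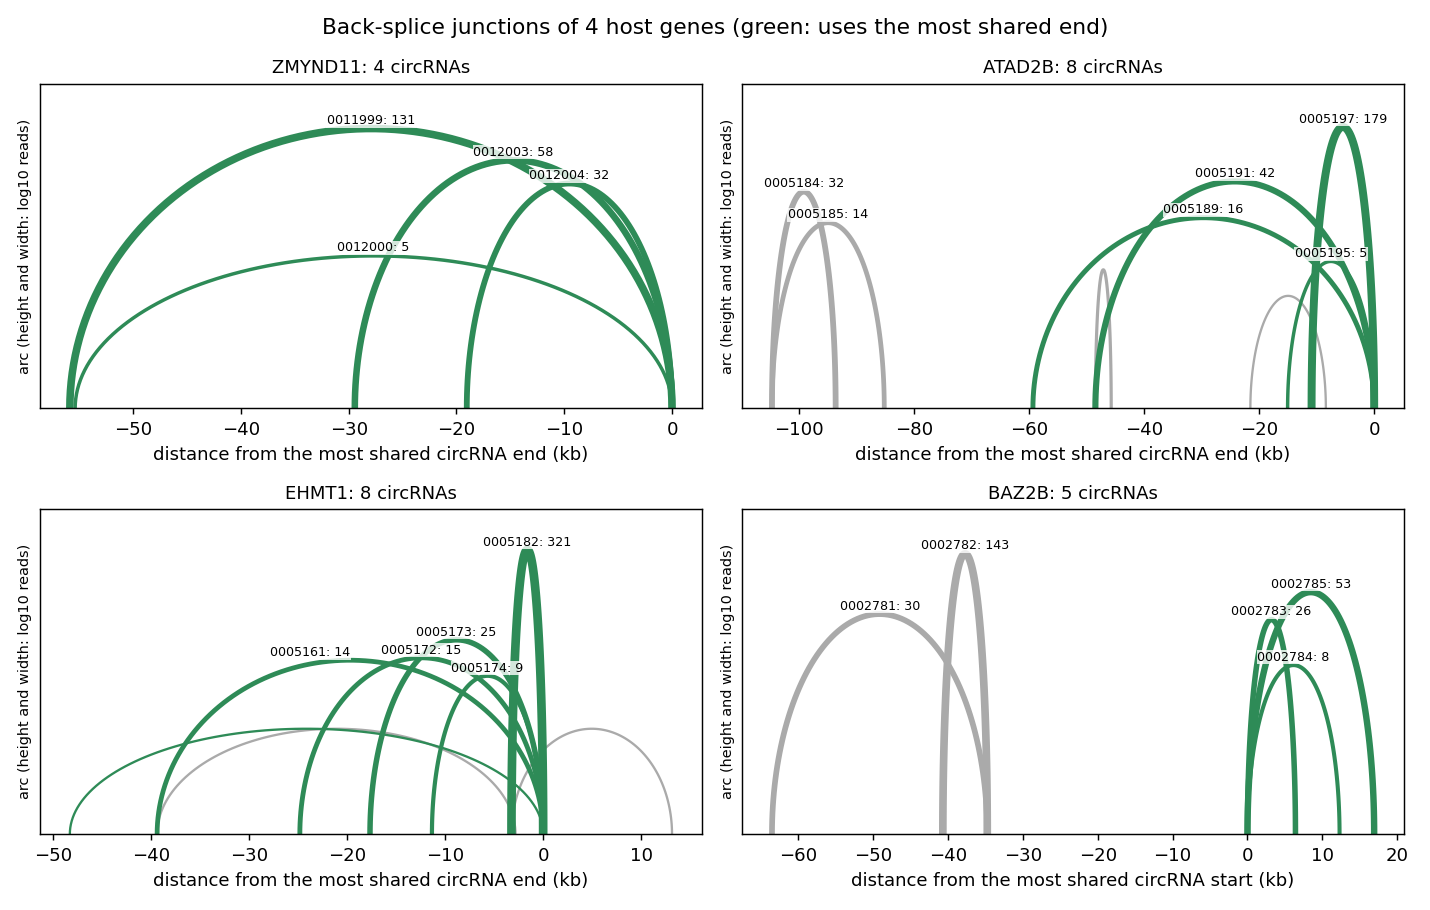
Back-splice junctions of ZMYND11, ATAD2B, EHMT1 and BAZ2B as arcs along the gene, in kilobases from the most shared junction end or start, with green arcs using it. Arc height and width follow the log10 of junction reads over 10 libraries, and labels give the last digits of the circRNA name and its reads where it has 5 or more. All 4 ZMYND11 circles and 6 of 8 EHMT1 circles meet at 1 end.

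Between OR-STH and STH no chromatin regulator circRNA passed the test. In limma voom, 17 of the 207 were abundant enough to be tested (at least 5 libraries at a read rate equal to 10 reads in a library of median depth, and 15 reads in all), and 0 had an adjusted p under 0.05; the smallest was 0.781. The series as a whole had 0 of 738 (0%), with a smallest adjusted p of 0.208. Without adjustment, p was under 0.05 for 1 of the 17 in the higher direction, the CHD2 circle, and for 2 in the lower direction, from ZMYND11 and ATAD2B. The background over all tested circRNAs is 5.69% in either direction, 1.22% higher and 4.47% lower. Positive fold changes made up 9 of 17 and negative ones 8 of 17, beside 47.6% and 52.4% of all tested circRNAs. The median log2 fold change (OR-STH over STH) of the 17 was 0.06 and that of all 738 was -0.04. In none of the 17 did the normalized reads of the groups stand apart without overlap, which they did in 0.542% of all tested circRNAs with OR-STH above and 0.813% with OR-STH below. A limma trend fit on log2(normalized reads + 1) also called 0 of them.

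Summed by host gene, the result was the same. Of the 67 hosts 20 were tested and 0 passed, with a smallest adjusted p of 0.697, among 0 of 753 hosts of the series (0%). Here 6 hosts had an unadjusted p under 0.05: CHD2 and BAZ2B with positive fold changes, and ATAD2B, ZMYND11, NSD3 and SETD3 with negative ones. That is 2 and 4 of 20, beside 1.59% and 4.38% of all tested hosts (5.98% in either direction). The groups overlapped in each of the 20, and stood apart in 0.266% of all tested hosts with OR-STH above and 0.398% with OR-STH below. The median log2 fold change over the 20 hosts was -0.04, with 7 positive and 13 negative, against -0.02 over all 753, of which 48.2% were positive and 51.8% negative.

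**Figure D3:**
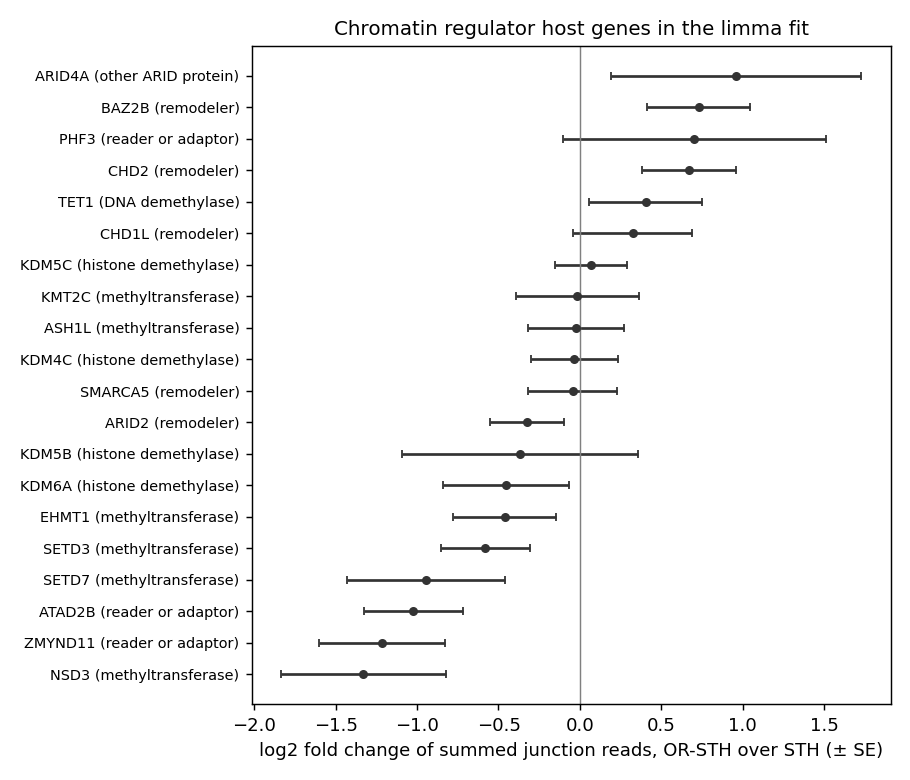
Log2 fold change (OR-STH over STH) of junction reads summed per host for the 20 tested chromatin regulator hosts, with standard errors from limma voom. ATAD2B at -1.02, ZMYND11 at -1.22 and NSD3 at -1.33 lie lowest, and no host passed the adjusted threshold.

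The tested demethylase circles had log2 fold changes from -0.18 (KDM6A) to 0.52 (TET1), and none passed the test. KDM5C, on the X chromosome, removes methyl groups from histone H3, and its circle novel_circ_0017269 (chromosome X, 51107291 to 51107702, minus strand) is a single block of 412 bases and the most abundant of all 207. It had 121, 84, 136, 171 and 166 junction reads in OR-STH 1 to 5, against 116, 89, 88, 108 and 117 in STH 1 to 5. After scaling for depth the groups covered largely the same range, 85.5 to 148 in OR-STH and 94.8 to 151 in STH, with a log2 fold change of 0.06 ± 0.21 (SE). It made up 99.5% of the KDM5C reads. The circle of KDM4C, which also acts on methylated histone H3, is novel_circ_0003950 (chromosome 2, 74808709 to 74828664, plus strand). It had 54, 57, 27, 56 and 66 reads in OR-STH and 33, 29, 43, 60 and 58 in STH. The groups overlapped almost fully, and the log2 fold change was -0.10 ± 0.26.

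KDM6A, a second X-linked demethylase of histone H3, gave novel_circ_0017238, with normalized reads of 6.33 to 17.6 in OR-STH and 5.91 to 29.1 in STH and a log2 fold change of -0.18 ± 0.49. Summed over its 4 circRNAs the log2 fold change of KDM6A was -0.45 ± 0.38, and that of KDM5B, another enzyme of the KDM5 kind, was -0.37 ± 0.72. TET1 oxidises methylated cytosine in DNA, and its circle novel_circ_0016454 (chromosome 25, 24222478 to 24228777, plus strand) holds 185 bases in 2 blocks. It had 22, 37, 28, 42 and 31 reads in OR-STH and 24, 17, 22, 7 and 27 in STH. STH 4 was the lowest of the 10 libraries, and the other libraries of both groups overlapped. The log2 fold change was 0.52 ± 0.38, and 0.15 without STH 4. The 11 histone demethylase hosts together averaged 212 ± 23.3 normalized reads in OR-STH and 224 ± 18.4 in STH (SD, n = 5 each).

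**Figure D4:**
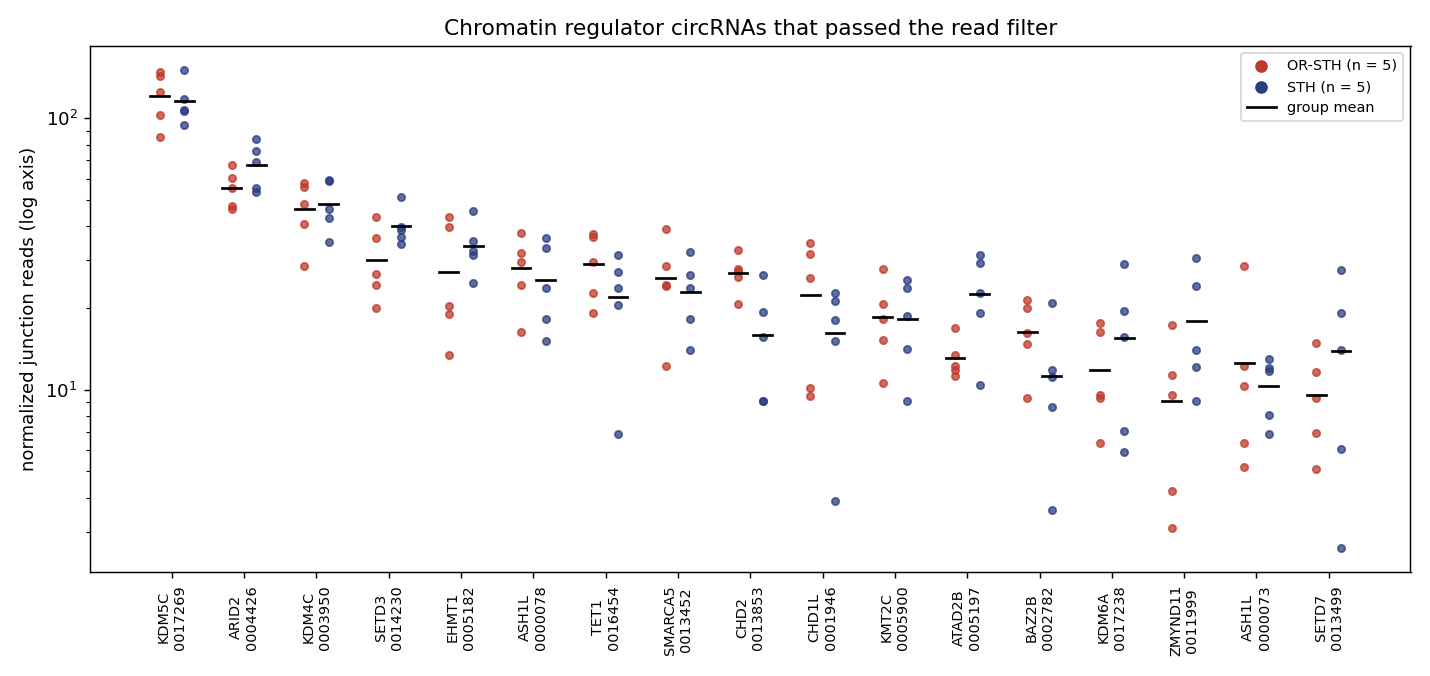
Normalized junction reads of the tested chromatin regulator circRNAs in each library on a log axis, OR-STH in red beside STH in blue, with bars at the group means. KDM5C stands highest with 121 ± 26.7 in OR-STH and 116 ± 21.5 in STH, and in every one of the 17 the groups overlap.

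All 6 tested methyltransferase hosts had negative log2 fold changes, though none passed the test, and those of ASH1L and KMT2C, near 0, turned positive with library totals alone and with looser filters. NSD3, a methyltransferase of histone H3, had 10, 9, 12, 12 and 7 summed reads in OR-STH and 15, 29, 13, 12 and 25 in STH. Scaled for depth, the highest OR-STH library had 12.8 and the lowest STH library 11.7, so the groups met at 1 edge. The log2 fold change was -1.33 ± 0.50 (unadjusted p = 0.0152, adjusted p = 0.714 by limma voom), and -0.84 without OR-STH 5. Most of these reads came from novel_circ_0016813 (chromosome 26, 32574116 to 32574807, minus strand).

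SETD7, a methyltransferase that acts on histone H3 and on many other proteins, had only 2 circles, and they differed. Both end at base 18254140 of chromosome 17. The shorter, novel_circ_0013499, begins at 18249047 and had 9, 5, 11, 8 and 24 reads in OR-STH against 2, 16, 13, 28 and 6 in STH, a full overlap with a log2 fold change of -0.25 ± 0.59. The longer, novel_circ_0013497, begins at 18234588. It had 4 reads in OR-STH 1 and 28 in OR-STH 5 and was not listed in OR-STH 2 to 4, while the STH libraries had 10, 8, 12, 21 and 12. It was too sparse for the limma voom fit, and its exact two-sided permutation p was 0.0397 before and 1 after adjustment. No sparse circle alone could pass that adjustment, for the reason given with the sparse circles below. For the SETD7 host sum the log2 fold change was -0.94 ± 0.49, or -1.57 when OR-STH 5, which held most OR-STH reads of the longer circle, was left out.

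The remaining methyltransferase hosts overlapped between groups. SETD3 circle novel_circ_0014230 (chromosome 18, 62129767 to 62136658, minus strand) had 35, 24, 19, 50 and 43 reads in OR-STH and 28, 33, 36, 52 and 34 in STH. Its log2 fold change was -0.45 ± 0.26, and the SETD3 host sum gave -0.58 ± 0.27 (unadjusted p = 0.0445, adjusted p = 0.76). EHMT1 circle novel_circ_0005182 (chromosome 3, 315183 to 318417, minus strand) had 13, 20, 18, 46 and 70 reads in OR-STH and 19, 38, 30, 32 and 35 in STH. OR-STH was the more spread group and held both the lowest and the highest library in reads, and the log2 fold change was -0.37 ± 0.34. KMT2C, which methylates histone H3 at enhancers, gave 11 circRNAs, and its main circle novel_circ_0005900 had a log2 fold change of 0.06 ± 0.36 and its host sum one of -0.02 ± 0.38.

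ASH1L, another histone H3 methyltransferase, was the most abundant host of this class. Its circle novel_circ_0000078 (chromosome 1, 105682103 to 105682623, minus strand) had 31, 16, 23, 34 and 61 reads in OR-STH and 14, 30, 31, 24 and 15 in STH, with a log2 fold change of 0.19 ± 0.32. The second, novel_circ_0000073, had 10, 12, 6, 6 and 46 reads in OR-STH and 9, 10, 12, 7 and 8 in STH. OR-STH 5 was the highest library for both, in reads and after scaling for depth, and the log2 fold change of the second was 0.34 ± 0.59 with it and -0.30 without it. The 13 methyltransferase hosts together had 150, 120, 125, 186 and 257 normalized reads in OR-STH 1 to 5 and 156, 332, 232, 254 and 204 in STH 1 to 5. The means were 167 ± 56.3 and 236 ± 65.1 (OR-STH and STH, SD, n = 5 each), and the groups overlapped.

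The nucleosome remodelers were the largest class by reads (2692 from 20 hosts), and they went both ways. ARID2, a subunit of the PBAF remodeling complex, gave novel_circ_0004426 (chromosome 3, 140605343 to 140608895, minus strand), which had 46, 66, 57, 64 and 75 reads in OR-STH and 53, 46, 78, 77 and 53 in STH, with a log2 fold change of -0.29 ± 0.22. SMARCA5, the ISWI remodeling ATPase, gave novel_circ_0013452 at 0.11 ± 0.34. CHD1L, an ATPase recruited to sites of DNA damage, gave novel_circ_0001946 at 0.38 ± 0.49. None of these separated the groups.

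CHD2, a chromodomain ATPase, had the largest positive difference among the tested circles. Its main circle novel_circ_0013853 (chromosome 18, 13539294 to 13545121, minus strand) had 20, 27, 31, 32 and 42 reads in OR-STH and 7, 13, 18, 27 and 9 in STH. It averaged 26.9 ± 4.32 normalized reads in OR-STH and 15.96 ± 7.40 in STH (SD, n = 5 each), and only STH 4, at 26.6, reached the OR-STH range of 20.7 to 32.7. The log2 fold change was 0.78 ± 0.34 (unadjusted p = 0.034, adjusted p = 0.781 by limma voom). It lay between 0.60 and 1.06 when each library was left out in turn. With 12 circRNAs CHD2 had the most of any of the 67 hosts, and its host sum had a log2 fold change of 0.67 ± 0.29 (adjusted p = 0.76).

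BAZ2B had 5 circles, 3 with higher and 2 with lower means in OR-STH. The most abundant, novel_circ_0002782, had 9, 21, 14, 23 and 26 reads in OR-STH and 16, 3, 8, 12 and 11 in STH, with a log2 fold change of 0.65 ± 0.48. Of the circles with the shared start, novel_circ_0002785 had 4, 10, 9, 8 and 13 reads in OR-STH, against 4 in STH 1, 5 in STH 4 and no entry in STH 2, 3 and 5 (exact two-sided permutation p = 0.0238, adjusted p = 1). From the same start, novel_circ_0002783 had 7, 2, 3 and 12 reads in OR-STH 1, 3, 4 and 5 and was otherwise listed only in STH 4, with 2 reads (exact permutation p = 0.0476, adjusted p = 1). Against these, novel_circ_0002784, which also uses the shared start, was listed in STH 2 and 3 alone, and novel_circ_0002781 averaged 2.35 ± 3.78 normalized reads in OR-STH and 3.71 ± 2.82 in STH. The BAZ2B host sum averaged 30.6 ± 5.58 in OR-STH and 19.1 ± 5.49 in STH, a log2 fold change of 0.73 ± 0.32 (unadjusted p = 0.0324, adjusted p = 0.76). ARID4A, a DNA-binding partner of deacetylase complexes, had a host log2 fold change of 0.96 ± 0.77; no ARID4A circle was listed in STH 1, and without that library the value was 0.38.

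Among the readers, ATAD2B and ZMYND11 had the smallest unadjusted p-values of the 20 tested hosts, both with lower means in OR-STH. ATAD2B had 25, 31, 16, 18 and 22 summed reads in OR-STH and 22, 40, 40, 43 and 37 in STH. Scaled for depth these averaged 20.8 ± 7.43 in OR-STH and 39.4 ± 6.28 in STH (SD, n = 5 each), and the highest OR-STH library, at 31.2, passed only the lowest STH library, at 29.5. The log2 fold change was -1.02 ± 0.31 (unadjusted p = 0.00298, adjusted p = 0.697 by limma voom), between -1.17 and -0.86 when each library was left out. Its main circle novel_circ_0005197 (chromosome 3, 31625561 to 31636437, minus strand) had 13, 12, 16, 13 and 19 reads in OR-STH and 8, 16, 21, 32 and 29 in STH, a log2 fold change of -0.77 ± 0.35 (unadjusted p = 0.0426, adjusted p = 0.781). Of the 3 circles that run from the same end to more distant starts, 1 was listed in OR-STH 2 alone (novel_circ_0005195, with 5 reads) and the others mostly in STH: novel_circ_0005191 had 8 reads in OR-STH 1 and no other entry in OR-STH, against 3, 12, 7, 7 and 5 in STH. Another ATAD2B circle, novel_circ_0005189, with ends 59297 bases apart the widest of all 207, had 2, 7, 3 and 4 reads in STH 1 to 4 and none listed in OR-STH. Away from this end, novel_circ_0005184 had 4, 11 and 3 reads in OR-STH 1, 2 and 4 and 5, 6 and 3 in STH 2, 3 and 5.

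ZMYND11 showed the same arrangement of 1 shared end with unequal circles. Its main circle novel_circ_0011999 (chromosome 13, 46439552 to 46495419, minus strand) had 11, 17, 4, 11 and 5 reads in OR-STH and 7, 20, 13, 31 and 12 in STH. The fitted log2 fold change was -1.53 ± 0.57 (unadjusted p = 0.0171, adjusted p = 0.781), but it leaned on the deepest library: it was -0.73 without OR-STH 5 and -0.99 in the limma trend fit. A circle with a nearer start, novel_circ_0012003, had 3, 13, 4, 6 and 6 reads in OR-STH and 6, 2, 4, 7 and 7 in STH, with means of 5.89 ± 4.17 and 5.70 ± 2.26 normalized reads (OR-STH and STH). The circle with the nearest start, novel_circ_0012004 (46476376 to 46495419), was listed in OR-STH 4 alone with 3 reads and in all STH libraries with 5, 4, 6, 6 and 8. Here the groups did not overlap, with unlisted libraries counted as 0 and low counts in STH. How many sparse circRNAs of the series stood apart in this way was not counted, so this separation has no share to be read against. Among the more abundant, tested circRNAs of the series 0.813% stood apart with OR-STH below. The exact two-sided permutation p was 0.00794, the smallest that 5 against 5 libraries can give, and 1 after adjustment. Among sparse circRNAs of the series listed in at least 4 libraries, 3.09% had a permutation p under 0.05 in the lower direction. That limit is looser than a full separation of the groups. The ZMYND11 host sum averaged 15.6 ± 9.24 in OR-STH and 31.0 ± 7.09 in STH, with a log2 fold change of -1.22 ± 0.39 (unadjusted p = 0.00479, adjusted p = 0.697). For PHF3, which binds RNA polymerase II, the host log2 fold change was 0.70 ± 0.81; it was 0.15 without STH 1, in which no PHF3 circle was listed. The 12 reader hosts together averaged 68.9 ± 18.6 normalized reads in OR-STH and 105 ± 17.5 in STH, and the ranges of 47.1 to 96.6 and 76.8 to 119 overlapped.

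**Figure D5:**
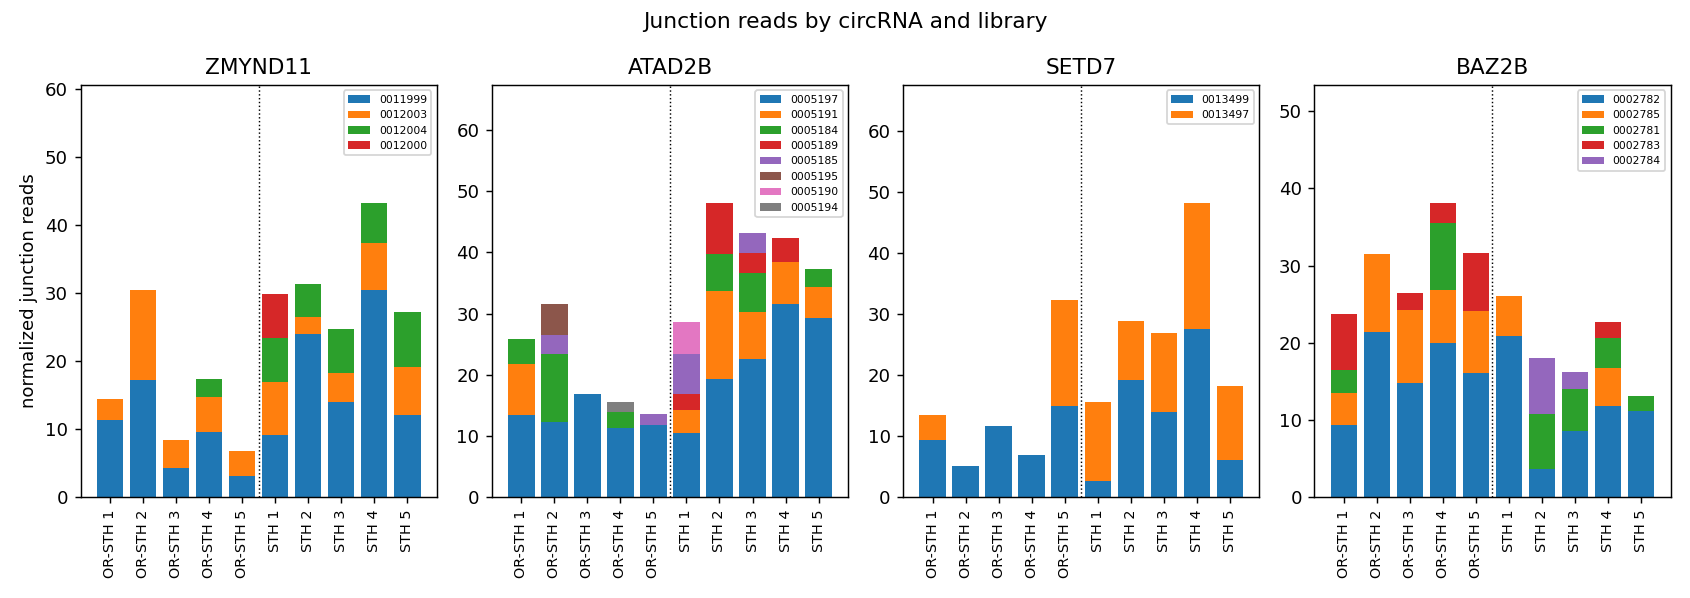
Normalized junction reads of each circRNA of ZMYND11, ATAD2B, SETD7 and BAZ2B, stacked per library, OR-STH libraries left of STH libraries, with colors for the circRNAs of each host. The ATAD2B and ZMYND11 stacks are on average taller in STH, and the longer SETD7 circle is missing from OR-STH 2 to 4.

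Acetyltransferases and deacetylases gave few circles. The 5 acetyltransferase hosts had 117 reads and the 3 deacetylase hosts 108, and none was abundant enough for the test. KAT2B led the acetyltransferases: novel_circ_0001335 (chromosome 1, 278334695 to 278336265) had 6 reads in OR-STH 3 alone of its group and 4, 4, 4 and 3 in STH 1 to 4. HDAC4 led the deacetylases with an intronic circle, novel_circ_0000810 (chromosome 1, 2166897 to 2172536), which had 3, 13 and 8 reads in OR-STH 2, 4 and 5 and 3, 5 and 6 in STH 3 to 5. The class means lay within 1 SD of each other. They were 12.1 ± 6.19 normalized reads in OR-STH and 11.9 ± 9.18 in STH for acetyltransferases and 11.4 ± 5.81 and 9.75 ± 1.99 for deacetylases (OR-STH and STH). Single acetyltransferase hosts went both ways: KAT2B had 11 junction reads in OR-STH and 32 in STH, and KAT7 had 30 and 9.

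Among the 190 circRNAs below the abundance limit, 61 were listed in at least 4 libraries, the fewest for which the permutation test can reach 0.05. Of these, 9 had an exact permutation p under 0.05, 2 higher in OR-STH (both from BAZ2B) and 7 lower. The background over all such circRNAs of the series is 5.29% in either direction, 2.19% higher and 3.09% lower. None had an adjusted p below 1. The smallest p this permutation test can give is 0.00794, so after adjustment over 7983 circRNAs a single circle could not pass. The adjusted values therefore say nothing about these circles. Besides those described, the 7 include EHMT1 novel_circ_0005173, with 4 reads in OR-STH 5 and 3, 5, 9 and 4 in STH 1 to 4, and ASH1L novel_circ_0000071, with no entry in OR-STH and 4, 2, 6 and 5 reads in STH 2 to 5.

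Some circles were listed in 1 group alone. A listing in at least 3 STH libraries and no OR-STH library was found for 5 of the 207, from ASH1L, ATAD2B, BRD1, KAT2B and SMARCA2, and the reverse for none; in the series 1.05% had the first pattern and 1.07% the reverse. BRD1, a scaffold of histone acetyltransferase complexes, gave 1 circle (novel_circ_0005123), with 5, 5 and 8 reads in STH 2, 3 and 4. KAT2B novel_circ_0001333 had 2, 4 and 2 reads in the same libraries, and SMARCA2 novel_circ_0003894, from an ATPase of the SWI/SNF remodelers, had 3, 3 and 2 in STH 3 to 5. All 5 are sparse, with 8 to 18 reads in all. More widely, 44 circRNAs were listed only in OR-STH libraries and 56 only in STH libraries, 21.3% and 27.1%, against 23.4% and 22.6% in the series.

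Dropping the abundance limit changed these outcomes. Fitted with all 8721 circRNAs, limma voom called 2 chromatin regulator circRNAs, ZMYND11 novel_circ_0012004 (log2 fold change -3.31, adjusted p = 0.00539) and ATAD2B novel_circ_0005191 (-3.04, adjusted p = 0.0334), beside 0.344% of all circRNAs. SETD7 novel_circ_0013497 missed the threshold there (adjusted p = 0.0509). These fitted values depend on how unlisted entries are counted and are no bound on the size of the difference. For the 2 called circles the unadjusted limma voom p-values were 3.97e-06 and 9.2e-05. Their exact permutation p-values were 0.00794 and 0.0397. The fit draws its variances from all rows, many of them listed in 1 library, so its p-values do not rest on these circles' spread alone. With a filter of 2 reads in 5 libraries the 2 circles were also fitted, and neither was called. In the authors' deposited table, whose fold changes run STH over OR-STH, 7 of the 207 had a p under 0.05, beside 1.35% of the series, and the smallest adjusted p was 0.966.

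The chromatin regulators' share of all junction reads was 1.82%, 1.90%, 1.69%, 2.10% and 1.97% in OR-STH 1 to 5, against 1.61%, 2.40%, 1.63%, 2.26% and 1.75% in STH 1 to 5. The 95% Wilson intervals run from 1.57 to 1.83% for the lowest OR-STH library and from 2.24 to 2.56% for the highest STH library, and cover counting error only. The means were 1.90 ± 0.155% and 1.93 ± 0.371% (OR-STH and STH, SD, n = 5 each), and STH spanned the whole OR-STH range. These shares also follow the total, in which the most abundant circRNA of the series weighed unequally. It was not listed in OR-STH 2, OR-STH 4, STH 2 or STH 4. Leaving it out of the total moved the share from 1.61 to 1.93% in STH 1 and from 1.63 to 2.15% in STH 3. In STH 5 the share moved from 1.75 to 1.94%, and in OR-STH 1 from 1.82 to 1.91%. Without it the means were 1.94 ± 0.125% in OR-STH and 2.14 ± 0.201% in STH. The ranges of 1.77 to 2.10% and 1.93 to 2.40% (OR-STH and STH) overlapped in part. As a share of the circRNAs listed, however, the group made up 2.02 to 2.30% in OR-STH libraries and 2.33 to 2.61% in STH libraries, without overlap. No test was made of these shares.

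The circles differed widely in how many non-junction reads, which the authors list without defining, stood beside each junction read. Among circRNAs with at least 100 junction reads, TET1 had 1.31, KDM5C 1.57 and ARID2 novel_circ_0004426 1.74 non-junction reads per junction read, the lowest values. SETD7 novel_circ_0013499 had 89.5, ZMYND11 novel_circ_0011999 28.4 and SMARCA5 novel_circ_0013456 27.3, the highest. When junction reads were taken per non-junction read, 0 circRNAs passed in limma; CHD2 novel_circ_0013853 had a log2 difference of 1.06 ± 0.41 (unadjusted p = 0.0212, adjusted p = 0.591), where the median over all tested circRNAs was 0.30. On that scale ATAD2B novel_circ_0005197 stood at -0.29 and ZMYND11 novel_circ_0011999 at -0.76.

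Chromatin genes outside the chosen families showed no called change either. Of 81 such genes 36 hosted circRNAs and 8 were tested: 0 passed in limma voom, 0 had an unadjusted p under 0.05, 5 were positive and 3 negative, and the median log2 fold change was 0.34. The largest were MLLT3, a reader of acylated histones, at 2.21 ± 1.10 (adjusted p = 0.76), and DNMT3A, a DNA methyltransferase, at 0.99 ± 0.53 (adjusted p = 0.76). RERE, a corepressor and the most abundant, stood at -0.08 ± 0.20. Of 17 nuclear receptor coregulators 11 hosted circRNAs, and KMT2C alone was abundant enough to be tested.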

How the data were processed

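Circular RNA was measured by sequencing 10 libraries, grouped as OR-STH or STH by their titles. Reads were aligned with HISAT2, per the submitters' processing notes; which tool called the circles, on which build and with which annotation, is not given in the sources used here. The deposited files list junction read counts and non-junction reads per library from 2 junction reads on. A second file holds the authors' group means as normalized signal, their log2 fold change (STH over OR-STH) and p-values; these deposited values are quoted only where named. The per-library lists also name 10 other samples, which were not used.

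Missing entries were set to 0. Reads were scaled by trimmed means of log ratios (30% trimmed on ratio, 5% on abundance) and tested with limma 3.58.1 voom with robust variances in R 4.3.3, on all circRNAs or host sums passing the filter, with Benjamini-Hochberg adjustment; the steps were tested on simulated data. Sparser circRNAs had an exact two-sided permutation test over 252 relabellings, adjusted over all 7983 of them. Named are all tested circRNAs and hosts, the top hosts, one-group listings and extreme ratios; other low-count circles and the closer look at unequal circles were chosen after their values were seen. The members and lists were chosen with earlier results of these data known. Coordinates are the files' own, counted from 1. Chromosome names come from the RefSeq gene table (assembly ARS-UI_Ramb_v3.0), whose gene IDs and symbols matched all 207. Depth per library limits precision as given in the report.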

Additional observations from a re-analysis of the deposited data

Results flagged for a closer look

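Among 78 groups of 5 libraries examined, most of them for the tested circRNAs and hosts, 1 held a library far from the others. The ASH1L host sum was 81.4 normalized reads in OR-STH 5, where the other OR-STH libraries had 32.2 to 42.6. The gap to the nearest library was 0.789 of the whole range. Chance alone flags about 1 in 20 groups, so 1 of 78 is fewer than chance alone would give on average. OR-STH 5 was also the deepest library, and the part of depth in this value was not tested.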

How the results depend on the processing

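No host among the chromatin regulators was called under any alternative run, and no circRNA of theirs except the 2 called with no filter beyond 1 read. Over the series 4 circRNAs were called with a filter of 2 reads in 5 libraries. With no filter the count was 30, and with the replicate number as a block it was 3. The counts of hosts were 2, 7 and 1 in the same order. The labels do not say what libraries of the same number have in common. Across 738 circRNAs, the deviations of same-numbered libraries correlated by 0.07, 0.18, 0.05, 0.12 and -0.11. Of the 5 numbers, 2 correlated best with their own number, namely 2 and 4. The most abundant circRNA of the series was listed in no library numbered 2 or 4, in either group, and in all other libraries. Whether same-numbered libraries share a batch was not tested. The block changed no call among the chromatin regulators. Leaving out each library gave 0 to 1 called hosts (1 without OR-STH 5 and 1 without STH 4). Some log2 fold changes turned sign, none of them past the threshold. With library totals alone they were 0.068 for SETD7 novel_circ_0013499, 0.067 for KDM4C novel_circ_0003950, and 0.10, 0.12, 0.12 and 0.15 for the KDM4C, ASH1L, SMARCA5 and KMT2C host sums, while the median of all circRNAs moved to 0.14. Per non-junction read they were 0.58 for ARID2 novel_circ_0004426, 0.12 for the SETD7 circle, 0.56 for the KDM4C circle and 0.13 for KDM6A novel_circ_0017238. With 2 reads in 5 libraries ASH1L and KMT2C host sums were 0.0092 and 0.0058, and with no filter 0.072 and 0.043. The cause was not tested. On leaving out a library, the ranges that crossed 0 were, for host sums, ASH1L -0.31 to 0.11, KDM4C -0.16 to 0.12, KDM5C -0.013 to 0.19, KMT2C -0.36 to 0.15 and SMARCA5 -0.18 to 0.10, and for circles, ASH1L novel_circ_0000073 -0.30 to 0.59, KDM4C -0.17 to 0.050, KDM5C -0.0078 to 0.20, KDM6A -0.49 to 0.26, KMT2C -0.105 to 0.22, SETD7 -0.61 to 0.23 and SMARCA5 -0.043 to 0.37. The scalings and the ratio per non-junction read called 0 members as well; the ratio and the fit without the most abundant circRNA were added after seeing the data. The difference in the share of junction reads (-0.03 percentage points) ran from -0.11 to 0.09 when each library was left out, and was -0.19 without the most abundant circRNA in the total and -0.12 over circRNAs listed in all 10 libraries. The circles had a median of 9 reads over the 10 libraries, and 190 of 207 were below the limit for the limma test.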
